A study of Mus musculus with 43 samples.

Results

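CDK inhibitors and D cyclins set the pace of the G1 phase of the cell cycle, and 9 genes of these 2 families were followed through TGFB1 treatment and irradiation of mouse intestinal cells. They were chosen by symbol: Cdkn1b, Cdkn1c, Cdkn2a, Cdkn2b, Cdkn2c and Cdkn2d for the inhibitors, and Ccnd1, Ccnd2 and Ccnd3 for the D cyclins. All 9 had a row among the 23951 genes of each bulk RNA table and in the gene list of each single-cell library. Bulk RNA came from primary intestinal organoids of wild-type C57BL/6 mice in 6 groups of 3 libraries. Organoids were either not irradiated and collected on day 7 (D7 non-IR), or given 4 Gy on day 4 and collected on day 7 (D7 IR) or on day 11 (D11 IR). Each condition had a vehicle group and a group with 2 ng/mL TGFB1, both applied on day 6 for 24 h. The D7 samples were therefore taken at the end of the treatment, and the D11 samples 4 days later. Single-cell RNA came from C57BL/6 wild-type organoids given 4 Gy on day 4 and collected on day 8. Those had 1 ng/mL TGFB1 for the last 6, 15 or 24 h, or vehicle for 24 h (called 0 h), with 1 library each. A further 3 single-cell libraries held crypt cells sorted for red fluorescence from mice of the Mki67tm1.1Cle/J strain, whose reporter marks cells that make the proliferation protein Ki67. Of these, 1 came from a non-irradiated littermate and 2 from mice taken 56 h after 12 Gy to the whole body. The gate was set on Ki67-RFP positive cells, which bears on the cell types these libraries can hold.

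D cyclins bind CDK4 or CDK6 and start the phosphorylation of the retinoblastoma protein, which releases E2F factors and lets a cell enter S phase. Inhibitors of the INK4 type (Cdkn2a, Cdkn2b, Cdkn2c, Cdkn2d) bind CDK4 and CDK6 alone, whereas those of the CIP/KIP type (Cdkn1b, Cdkn1c and the related Cdkn1a) bind complexes of a cyclin with its kinase. TGF-beta is known to stop the growth of many epithelial cells in G1, and Cdkn2b is a textbook target of its SMAD pathway. In the intestine, crypt stem and progenitor cells divide and the enterocytes that leave the crypt do not.

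Cdkn2a and Cdkn2b are neighbours on mouse chromosome 4, and both were higher with TGFB1 in irradiated organoids. Cdkn2a has 2 starts, one for the transcript of the cell-cycle inhibitor p16Ink4a and one for p19Arf, a regulator of p53. The values here are per gene and do not separate the 2 products. The sequences just before these starts are shown because the 2 genes lie side by side and differ in level, with Cdkn2a low at D7 and Cdkn2b well detected in every library. Promoter entries (build GRCm38.p6) were found for 6 of the 9 members, with 9 starts between them. Ccnd1, Ccnd2 and Cdkn1c had no promoter entry and are named only. The 250 bases before each start follow, 5′ to 3′ on the strand of the gene, which is the minus strand in each case. Capitals mark the SMAD box CAGAC or its reverse complement GTCTG.
Cdkn2b, chr4:89311033-89311282: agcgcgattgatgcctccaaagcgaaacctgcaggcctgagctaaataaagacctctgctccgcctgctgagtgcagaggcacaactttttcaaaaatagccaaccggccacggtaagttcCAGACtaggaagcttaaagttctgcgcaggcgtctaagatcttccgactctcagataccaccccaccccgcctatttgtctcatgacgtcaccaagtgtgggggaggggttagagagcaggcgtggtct
Cdkn2a, upstream start, chr4:89294620-89294869: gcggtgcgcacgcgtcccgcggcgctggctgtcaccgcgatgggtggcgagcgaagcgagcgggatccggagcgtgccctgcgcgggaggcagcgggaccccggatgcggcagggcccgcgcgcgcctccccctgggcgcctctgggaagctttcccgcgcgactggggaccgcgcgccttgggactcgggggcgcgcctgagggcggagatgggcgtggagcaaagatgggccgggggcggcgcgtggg
Cdkn2a, downstream start, chr4:89282193-89282442: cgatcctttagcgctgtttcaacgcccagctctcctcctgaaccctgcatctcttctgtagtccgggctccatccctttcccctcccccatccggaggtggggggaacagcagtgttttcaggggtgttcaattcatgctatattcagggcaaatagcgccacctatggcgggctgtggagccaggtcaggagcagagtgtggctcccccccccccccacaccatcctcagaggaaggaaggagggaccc
The Cdkn2b window held 1 CAGAC box, which began at -129 from the start, and both Cdkn2a windows held 0. CAGAC boxes also lay in windows of Cdkn2c (1), Cdkn2d (2) and Ccnd3 (2), which were lower with TGFB1 in D7 IR organoids. The other windows of Cdkn2c and Ccnd3 and that of Cdkn1b held 0. CAGAC on either strand was present in 42.2% of the 32851 promoter windows of that length, so a single match is common. The upstream Cdkn2a window was rich in G and C (78.4%) beside 53.6% in the Cdkn2b window, and held 2 GGGCGG boxes, a motif that 32.7% of all windows had on either strand. A match is a description of the letters and not a binding site.

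The bulk libraries summed to 447728 to 621996 FPKM (fragments scaled by transcript length and library size), and their read depth is unknown. The step between low values put a single read at 0.865 to 1.09 times its worth in the first vehicle library of each table. The labels do not say whether replicates were separate cultures or animals, so p-values measure the spread between these libraries only. Epithelial markers summed to 4705 to 14670 FPKM, whereas the 6 mesenchymal markers stayed under 1 FPKM together (0.0166 to 0.623). In bulk RNA, fewer cells of a type and less RNA per cell cannot be told apart. Tests used limma on log2(FPKM + 1) for genes averaging 1 FPKM or more in the table, with Benjamini-Hochberg adjusted p over all genes tested and a threshold of 0.05. Changes on this scale understate those of low genes. Each condition had its own table. A TGFB1 effect that differs with irradiation or day (interaction) therefore cannot be told apart from one that differs between tables.

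Among the INK4 inhibitors, Cdkn2b was higher after TGFB1 in every table. It encodes p15Ink4b. Without irradiation it measured 33.2, 34.0 and 33.9 FPKM with vehicle and 36.9, 44.1 and 40.2 FPKM with TGFB1, a log2 difference of 0.25 ± 0.06 (SE, limma adjusted p = 0.00242, n = 3 per group). After irradiation, at D7, it measured 39.0, 39.6 and 42.5 FPKM with vehicle and 81.3, 84.7 and 86.9 FPKM with TGFB1, a log2 difference of 1.04 ± 0.04 (limma adjusted p = 8.19e-09). The TGFB1 libraries were all above the vehicle libraries. In D11 IR organoids, collected 4 days after the treatment ended, both levels were lower, at 16.8, 18.7 and 21.3 FPKM with vehicle and 40.4, 39.8 and 35.7 FPKM with TGFB1. The log2 difference was still 1.00 ± 0.09 (limma adjusted p = 1.29e-05). The response was larger with irradiation than without it at D7 (interaction 0.79 ± 0.08 on the log2 scale, limma adjusted p = 1.03e-06). Between D11 and D7 the TGFB1 effect differed by -0.05 ± 0.11 in irradiated organoids (limma adjusted p = 0.734), a difference whose sign changed when D11 IR vehicle replicate 3 was left out (0.039) or D11 IR TGFB1 replicate 3 was left out (0.00947).

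Cdkn2a was much lower than Cdkn2b: it stayed at or under 1.70 FPKM at D7 and was high with TGFB1 at D11. By D11 it measured 0.23, 0.51 and 0.51 FPKM with vehicle and 9.34, 7.05 and 7.19 FPKM with TGFB1, a ratio of means of 18.8. The groups were far apart. It passed the filter on low values only through the TGFB1 libraries, so a difference was built into its test (log2 difference 2.64 ± 0.14, limma adjusted p = 2.86e-07). At D7 after irradiation it measured 0.42, 0.29 and 0.34 FPKM with vehicle and 1.23, 0.91 and 1.70 FPKM with TGFB1. The groups did not overlap there, the gene was under the filter, and without a filter the log2 difference was 0.74 ± 0.13 (limma adjusted p = 0.00169). In D7 non-IR organoids its groups overlapped, at 0.15, 0.40 and 0.96 FPKM with vehicle and 0.22, 0.96 and 0.76 FPKM with TGFB1. The term for a larger TGFB1 effect at D11 than at D7 was 1.90 ± 0.19 (limma adjusted p = 1.43e-06), but Cdkn2a entered that fit too only through the D11 TGFB1 libraries, so the term is a description.

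Cdkn2c and Cdkn2d, which encode p18Ink4c and p19Ink4d, went the other way. In D7 non-IR organoids Cdkn2c measured 10.8, 10.1 and 10.9 FPKM with vehicle and 5.04, 3.79 and 6.09 FPKM with TGFB1, and it fell by 0.98 ± 0.12 on the log2 scale (limma adjusted p = 0.000121). In D7 IR organoids it fell by 1.73 ± 0.10 (limma adjusted p = 5.31e-08), from 8.06, 7.22 and 7.76 FPKM to 1.93, 1.27 and 1.71 FPKM. At D11 it fell by 0.58 ± 0.10 (limma adjusted p = 0.000666), from 10.8, 10.2 and 9.58 FPKM to 6.55, 7.30 and 5.67 FPKM. The groups were apart in each table. The decrease was larger with irradiation (interaction -0.75 ± 0.17, limma adjusted p = 0.00204) and smaller at D11 than at D7 (interaction 1.15 ± 0.14, limma adjusted p = 9.88e-06). Cdkn2d was low throughout. It fell by 0.72 ± 0.12 in D7 non-IR organoids (limma adjusted p = 0.000368), from 2.25, 2.47 and 3.03 FPKM to 1.59, 0.99 and 0.97 FPKM. At D7 after irradiation it was under the filter, at 1.08, 0.93 and 1.07 FPKM with vehicle and 0.50, 0.17 and 0.31 FPKM with TGFB1, and without a filter it fell by 0.62 ± 0.10 (limma adjusted p = 0.00111). In D11 IR organoids it measured 1.25, 1.82 and 2.05 FPKM with vehicle and 0.56, 1.104 and 0.79 FPKM with TGFB1 (log2 difference -0.57 ± 0.15, limma adjusted p = 0.00815). There it passed the filter only through the vehicle libraries.

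The CIP/KIP inhibitors also moved in opposite directions after irradiation. Cdkn1c, which encodes p57Kip2, measured 5.61, 5.17 and 5.96 FPKM with vehicle and 10.5, 9.37 and 11.8 FPKM with TGFB1 in D7 IR organoids, a log2 difference of 0.81 ± 0.08 (limma adjusted p = 5.5e-06). At D11 it measured 3.06, 3.402 and 4.59 FPKM with vehicle and 8.22, 7.68 and 9.83 FPKM with TGFB1, a log2 difference of 1.04 ± 0.14 (limma adjusted p = 0.000112). In D7 non-IR organoids the groups overlapped, at 3.19, 3.91 and 4.00 against 4.11, 4.66 and 3.68 FPKM, with a log2 difference of 0.13 ± 0.09 (limma adjusted p = 0.219). Enteroendocrine markers summed to 648 to 723 FPKM with vehicle and 1773 to 2011 FPKM with TGFB1 in D7 IR organoids, and to 836 to 1006 and 478 to 561 FPKM at D11, and their part in the Cdkn1c values was not tested. The Cdkn1c effect differed with irradiation (interaction 0.68 ± 0.13, limma adjusted p = 0.000596). Between the days it differed by 0.23 ± 0.17 (limma adjusted p = 0.249), a value that passed the test when D11 IR vehicle replicate 3 was left out (0.37). Cdkn1b, which encodes p27Kip1, had the reverse course and its loss was larger later. It fell by 0.62 ± 0.06 in D11 IR organoids (limma adjusted p = 2.21e-05), from 51.4, 51.7 and 50.2 FPKM to 33.6, 32.4 and 32.3 FPKM. After irradiation, at D7, it fell by 0.26 ± 0.06 (limma adjusted p = 0.00251), from 27.95, 31.0 and 30.8 FPKM to 26.9, 24.2 and 23.5 FPKM. Without irradiation it measured 52.8, 55.5 and 53.2 FPKM with vehicle and 47.5, 54.9 and 52.4 FPKM with TGFB1, and the groups overlapped (limma adjusted p = 0.299). The effect was more negative at D11 than at D7 (interaction -0.37 ± 0.08, limma adjusted p = 0.00169). The vehicle level also differed between tables, with a mean of 53.8 FPKM in D7 non-IR, 29.9 FPKM in D7 IR and 51.1 FPKM in D11 IR organoids. Levels across tables carry no test because the tables may have been scaled separately.

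**Figure D1:**
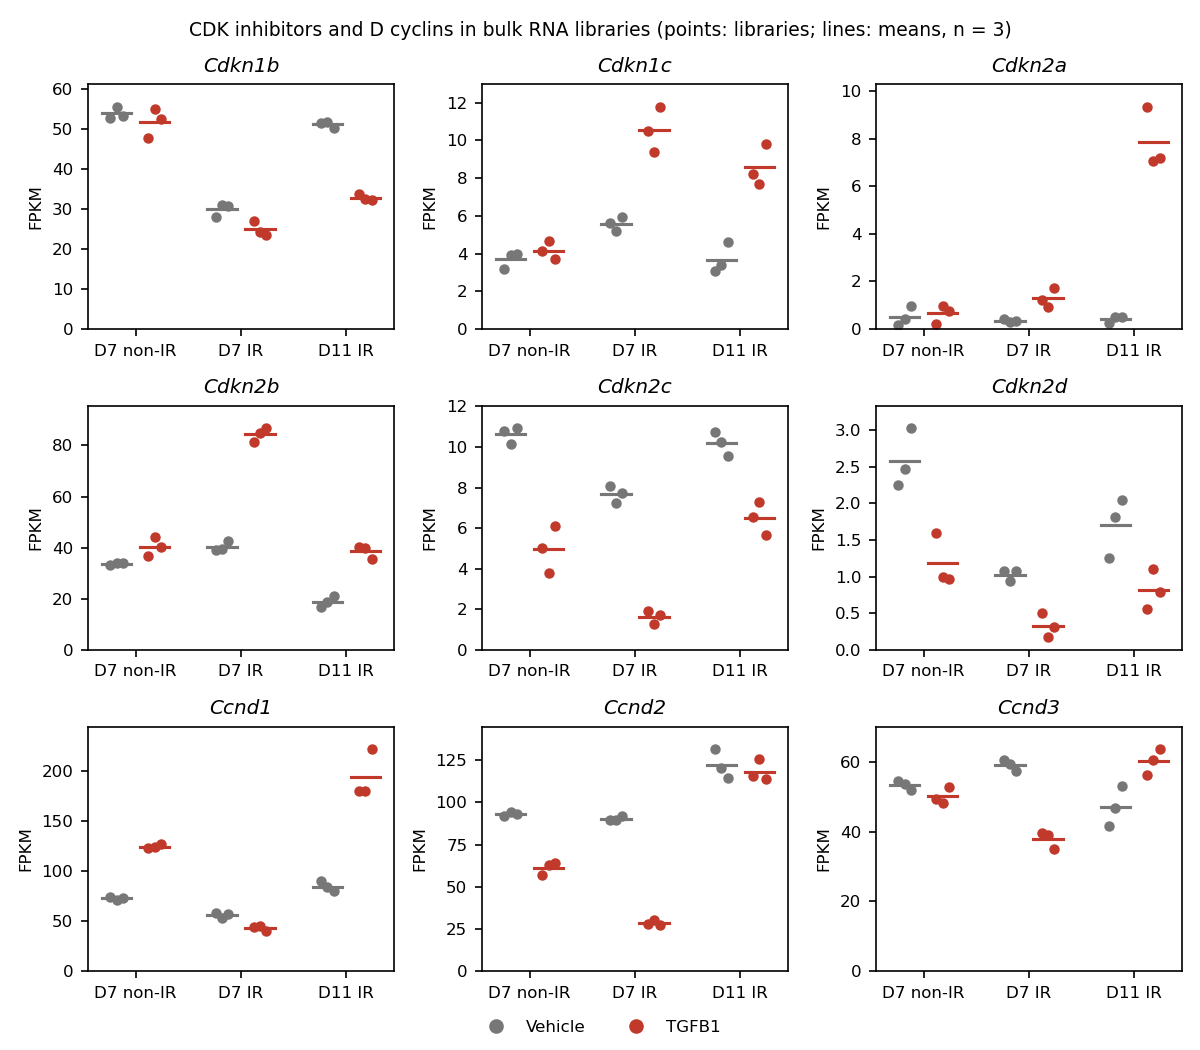
FPKM (y axis, linear, from 0) of the 9 members in the 18 bulk RNA libraries, by condition (x axis); each point is a library and each line the mean of 3. Cdkn2a stands out with TGFB1 at D11 only, whereas Ccnd2 is low with TGFB1 at D7 IR and level with vehicle at D11.

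The effect of TGFB1 on each D cyclin differed between the end of treatment and D11. Ccnd2 encodes cyclin D2. In D7 IR organoids it fell by 1.64 ± 0.04 on the log2 scale (limma adjusted p = 4.44e-10), from 89.3, 89.5 and 92.2 FPKM to 27.7, 30.0 and 27.1 FPKM. In D7 non-IR organoids it fell by 0.60 ± 0.04 (limma adjusted p = 5.19e-07), from 91.9, 94.2 and 93.1 FPKM to 56.9, 63.0 and 63.9 FPKM. By D11 it measured 131.9, 120.4 and 114.3 FPKM with vehicle and 115.5, 125.5 and 113.9 FPKM with TGFB1. Those groups overlapped (log2 difference -0.05 ± 0.09, limma adjusted p = 0.667), and without D11 IR vehicle replicate 1 the difference was above 0 (0.010). The TGFB1 effect was lower with irradiation (interaction -1.05 ± 0.07, limma adjusted p = 1.37e-08) and higher at D11 than at D7 (interaction 1.60 ± 0.09, limma adjusted p = 7.29e-09).

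Ccnd1, which encodes cyclin D1, rose in 2 of the 3 tables and fell in the third. Without irradiation it rose from 74.4, 71.0 and 73.1 FPKM to 122.7, 124.1 and 127.0 FPKM (log2 difference 0.77 ± 0.03, limma adjusted p = 5.99e-09). After irradiation, at D7, it fell by 0.38 ± 0.05 (limma adjusted p = 8.74e-05), from 58.1, 53.0 and 57.4 FPKM to 43.6, 45.4 and 40.0 FPKM. In D11 IR organoids it rose from 89.6, 83.6 and 79.8 FPKM to 180.6, 180.1 and 222.6 FPKM (log2 difference 1.19 ± 0.10, limma adjusted p = 7.26e-06). The direction at D7 thus turned with irradiation (interaction -1.14 ± 0.07, limma adjusted p = 6.22e-09), and in irradiated organoids it turned between D7 and D11 (interaction 1.57 ± 0.12, limma adjusted p = 7.52e-08). Ccnd3, which encodes cyclin D3, fell by 0.63 ± 0.05 in D7 IR organoids (limma adjusted p = 1.01e-06), from 60.7, 59.6 and 57.5 FPKM to 39.7, 39.0 and 34.9 FPKM. By D11 it rose by 0.35 ± 0.10 (limma adjusted p = 0.00959), from 41.8, 46.7 and 53.2 FPKM to 56.4, 60.6 and 63.9 FPKM. Without irradiation it measured 54.6, 53.8 and 51.9 FPKM with vehicle and 49.4, 48.2 and 53.0 FPKM with TGFB1, and it did not pass (limma adjusted p = 0.0816). Without D7 non-IR TGFB1 replicate 3 it did, at a log2 difference of -0.13.

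**Figure D2:**
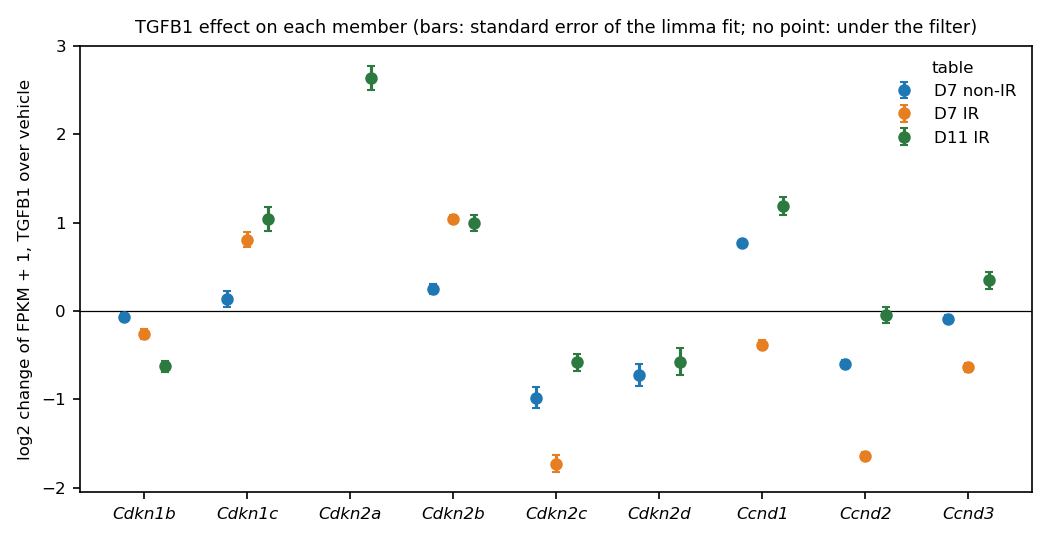
Log2 change of FPKM + 1, TGFB1 over vehicle (y axis), for each member (x axis) and table (colour); bars are the standard error of the limma fit, and members under the filter have no point. The D cyclins lie below 0 in D7 IR organoids (Ccnd1 -0.38, Ccnd2 -1.64, Ccnd3 -0.63), and Ccnd1 and Ccnd3 lie above 0 at D11.

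Counted over the members, 2 were called higher and 3 lower of 8 tested in D7 non-IR organoids, where 68.2% of all genes tested were called (33.3% higher and 34.9% lower). In D7 IR organoids 2 were higher and 5 lower of 7 tested, beside 75.5% of all genes (35.8% higher and 39.7% lower). In D11 IR organoids 5 were higher and 3 lower of 9 tested, beside 63.9% of all genes (32.3% higher and 31.6% lower), and 2 of those 9 (Cdkn2a and Cdkn2d) were tested only through 1 group. The vehicle and TGFB1 values of every member called did not overlap, and neither did those of 72.1% of all genes tested in D7 non-IR (35.3% higher and 36.8% lower), 78.2% in D7 IR (37.1% and 41.1%) and 70.0% in D11 IR organoids (35.8% and 34.3%). Most genes in these tables changed, so the number of members called is near the background. The effect differed with irradiation for 6 of 8 members tested (2 higher and 4 lower), beside 53.1% of all genes (25.3% and 27.8%). Between the days it differed for 6 of 8 (5 higher and 1 lower, with Cdkn2a among the 5 and tested only through its D11 TGFB1 libraries), beside 64.5% of all genes (31.5% and 33.0%).

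Ccnd2 made up a smaller share and Ccnd1 a larger share of D cyclin FPKM with TGFB1 in each table, although their sum did not move the same way and none of the 9 share tests could pass. Without irradiation at D7 the 3 D cyclins summed to 219 ± 1.396 FPKM in vehicle and 236.0 ± 7.52 FPKM in TGFB1 libraries (SD, n = 3). It was 206 ± 3.30 and 109 ± 6.38 in D7 IR organoids, and 254 ± 8.39 and 373 ± 24.7 in D11 IR organoids. Ccnd1 made up 33.2% of the sum in vehicle and 52.8% in TGFB1 libraries of D7 non-IR organoids, 27.3% and 39.4% in D7 IR organoids, and 33.2% and 52.0% in D11 IR organoids. Ccnd2 made up 42.4% and 25.9%, 43.9% and 25.9%, and 48.1% and 31.8% in the same order. Ccnd3 made up 24.4% and 21.3%, 28.8% and 34.7%, and 18.7% and 16.2%, so its share was also higher with TGFB1 in D7 IR organoids. The shares of Ccnd1 and Ccnd2 did not overlap between vehicle and TGFB1 in any table, with an exact two-sided permutation p of 0.1 in each case (adjusted p = 0.1125 over 9 tests), and 0.1 is the smallest p that 3 against 3 can give. For Ccnd3 the exact permutation p was 0.1 in both D7 tables and 0.4 at D11, where the groups overlapped. The sum of the 6 inhibitors was 105 ± 2.27 and 103 ± 7.05 FPKM in D7 non-IR, 84.9 ± 3.21 and 123 ± 2.72 FPKM in D7 IR, and 86.0 ± 2.37 and 95.2 ± 3.62 FPKM in D11 IR organoids. Cdkn2b went from 47.5% to 68.6% of that sum in D7 IR organoids and from 22.0% to 40.6% in D11 IR organoids, while Cdkn1b went from 35.2% to 20.2% and from 59.4% to 34.4%. At D11 Cdkn2a made up 8.24% of that sum with TGFB1 and 0.483% with vehicle. The sum leaves out the related inhibitor Cdkn1a, which alone averaged 200.0 FPKM with vehicle and 411 FPKM with TGFB1 in D7 non-IR organoids. In the same order Cdkn1a averaged 173 and 334 FPKM in D7 IR and 151 and 143 FPKM in D11 IR organoids.

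**Figure D3:**
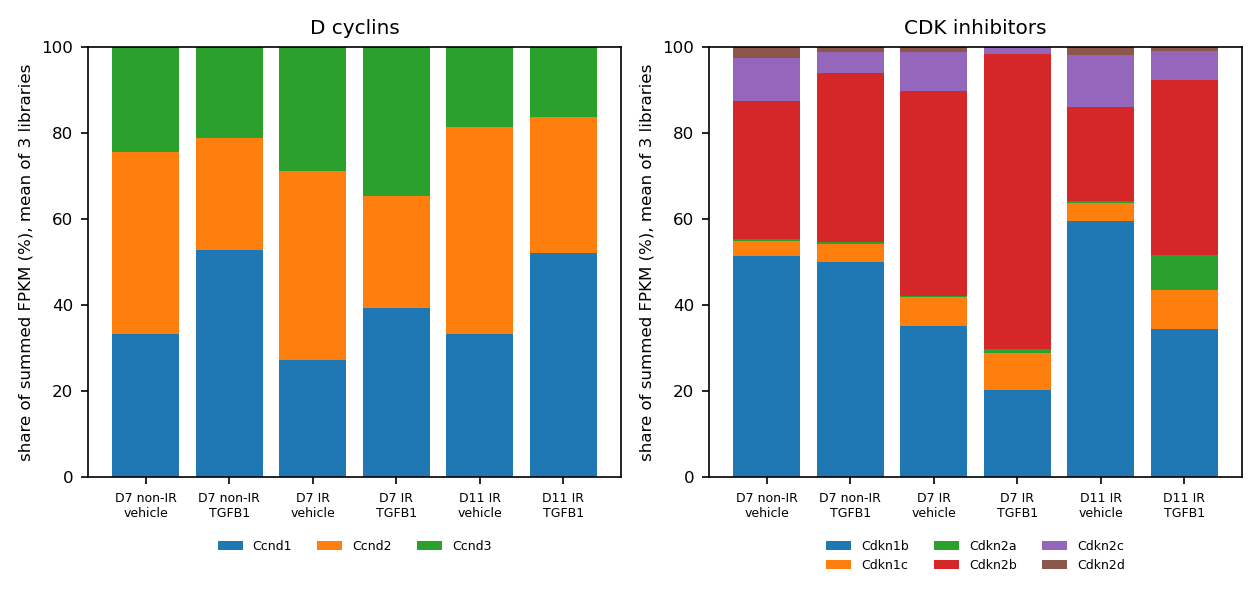
Share of the summed FPKM (y axis, %, mean of 3 libraries) taken by each D cyclin (left) and each CDK inhibitor (right) in the 6 groups (x axis). The Ccnd1 band is wider with TGFB1 in each pair. Cdkn2b reaches 68.6% of the inhibitors shown, which leave out Cdkn1a, in D7 IR organoids with TGFB1.

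Related cell-cycle genes were mostly called lower with TGFB1 at D7, and in both directions at D11. Of 28 such genes (kinases, E, A and B cyclins, pocket proteins, E2F factors and their regulators), 19 were called lower, 3 higher and 6 neither in D7 non-IR organoids, beside 34.9% of all genes lower and 33.3% higher, with a median log2 difference of -0.31 beside -0.02 over all genes. In D7 IR organoids 24 were lower and 1 higher, beside 39.7% and 35.8% (median -0.84 beside -0.03), and in D11 IR organoids 7 were lower and 7 higher, beside 31.6% and 32.3% (median -0.01 beside 0.01). The genes called higher were Cdkn1a (1.03), Cdk2 (0.14) and Cdk7 (0.18) in D7 non-IR and Cdkn1a (0.94) in D7 IR organoids, named after their values were seen because they are so few. Cdkn1a, the third CIP/KIP inhibitor, averaged 200.0 FPKM with vehicle and 411 FPKM with TGFB1 in D7 non-IR organoids, 173 and 334 FPKM in D7 IR organoids, and 151 and 143 FPKM in D11 IR organoids, where the groups overlapped (limma adjusted p = 0.628). Its TGFB1 effect was lower at D11 than at D7 (interaction -1.01 ± 0.13, limma adjusted p = 1.06e-05). Ccna2, the S phase and G2 cyclin, measured 107 FPKM with vehicle and 22.3 FPKM with TGFB1 in D7 IR organoids and fell by 2.22 ± 0.08 (limma adjusted p = 6.23e-09). At D11 it measured 97.5 and 105.5 FPKM (limma adjusted p = 0.253). Ccne1 and Ccne2, the E cyclins that act after the D cyclins, fell by 1.42 ± 0.06 and 1.58 ± 0.12 in D7 IR organoids, and were higher with TGFB1 at D11 by 1.26 ± 0.11 and 0.75 ± 0.13 (limma adjusted p = 9.05e-06 and 0.000543). Cdk1, Ccnb1, Ccnb2, Cdkn3, E2f8 and Skp2 fell by 1.73 to 1.90 on the log2 scale in D7 IR organoids. Skp2, which marks p27Kip1 for destruction, measured 12.6 FPKM with vehicle and 2.94 FPKM with TGFB1 there, beside the lower Cdkn1b RNA. E2f2 fell by 1.24 ± 0.07 in D7 non-IR organoids (limma adjusted p = 6.57e-08). It fell by 1.103 ± 0.05 in D7 IR and by 0.49 ± 0.10 in D11 IR organoids (limma adjusted p = 1.16e-08 and 0.00192).

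Summed markers of cell states differed between groups too, not always in 1 direction. With TGFB1 in D7 IR organoids, 8 S phase markers summed to 160 to 181 FPKM beside 391.7 to 399.7 with vehicle, and 8 mitosis markers to 174 to 215 beside 762 to 767. The 10 enterocyte markers summed to 21380 to 22270 beside 14370 to 15370, and the 7 regenerative markers to 4322 to 4673 beside 257 to 287. In D7 non-IR organoids the mitosis markers summed to 303 to 316 with TGFB1 beside 603 to 614, the S phase markers to 408 to 430 beside 419 to 427, and the enterocyte markers to 1898 to 2054 beside 3383 to 3529. At D11 the mitosis markers summed to 686 to 792 with TGFB1 and 665 to 729 with vehicle, the regenerative markers to 4278 to 5136 and 138 to 179, and the enterocyte markers to 2228 to 2608 and 3457 to 6127. The 6 stem markers summed to 562.8 to 585.8 FPKM with TGFB1 beside 870.9 to 955.3 with vehicle in D7 non-IR organoids. In D7 IR organoids they summed to 386.3 to 470.5 beside 954.6 to 989.4, and at D11 to 700.8 to 858.4 beside 545.5 to 706.5. The part of such shifts in the values of the members was not tested in bulk RNA.

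Over the 18 libraries, with each table centred on its mean, the genes most like each member among 10823 genes were listed by Pearson r. They were Dck (0.99) and Lipg (0.99) for Ccnd2, Atp6v1b2 (0.99) and Tsc22d1 (0.98) for Cdkn2b, Fancd2 (0.98) for Cdkn2c, and Setd8 (0.98) and Rarg (0.97) for Cdkn1c. For Ccnd1 they were Eif2s1 (0.98) and Iqgap2 (0.98), for Ccnd3 Bcat2 (0.97) and Scd1 (0.96), and for Cdkn1b Eif4b (0.96) and Arrdc2 (0.96). These libraries share their treatment groups, so high values are common, and Cdkn2a and Cdkn2d were not over the filter in all 3 tables.

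The single-cell libraries followed the first day of TGFB1. They held 2932, 4283, 2890 and 2218 kept cells at 0, 6, 15 and 24 h, with medians of 6709 to 10441 UMIs (molecule counts) per cell and 26300000 to 32430000 UMIs per library. No 2 of the 7 libraries shared more than 1 cell barcode. With 1 library per time there is no test between times, and the 95% intervals cover counting error only. Ccnd2 was the only member past 1.5-fold at 6 h with an interval clear of 1. It stood at 363 CPM (UMIs scaled to a common library total) at 0 h, 241 at 6 h, 156 at 15 h and 165 at 24 h, which is 0.663 (0.643 to 0.683), 0.431 (0.416 to 0.447) and 0.454 (0.439 to 0.470) times the 0 h value. Past 1.5-fold with an interval clear of 1, 2.85% of genes were lower at 6 h, 5.68% at 15 h and 8.13% at 24 h, and 6.11%, 10.5% and 17.1% were higher. Cdkn2b was level at 6 h (41.8 CPM, as at 0 h). It stood at 62.5 CPM at 15 h and 61.1 CPM at 24 h. These were 1.49 (1.38 to 1.61) and 1.46 (1.36 to 1.57) times 0 h, both short of 1.5-fold. Cdkn2c stood at 10.4, 9.13, 5.63 and 5.49 CPM in order of time, and Cdkn2d at 5.85, 4.66, 4.14 and 3.43 CPM. Cdkn2c at 15 and 24 h and Cdkn2d at 24 h were past 1.5-fold lower than at 0 h, with intervals clear of 1. Cdkn1c stood at 3.69, 3.08, 3.76 and 5.65 CPM, and the 24 h value was 1.501 times that at 15 h (1.17 to 1.94). The 24 h value was also past 1.5-fold above that at 0 h, with an interval clear of 1. The 8 enteroendocrine markers summed to 27.8, 25.2, 65.9 and 168 CPM in the same libraries, and their part in the Cdkn1c values was not tested. Cdkn1b stayed between 42.0 and 47.3 CPM. Ccnd1 stood at 78.2, 77.1, 68.6 and 92.5 CPM. Ccnd3 stood at 33.3 to 39.6 CPM, but 82.1 to 87.9% of its UMIs were fractional, meaning shared with another gene in the deposited matrices, so its level is uncertain. With whole-number entries alone its log2 ratio to 0 h was 0.29 at 6 h and 0.26 at 15 h, above 0, whereas all entries gave ratios of 0.944 and 0.876.

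**Figure D4:**
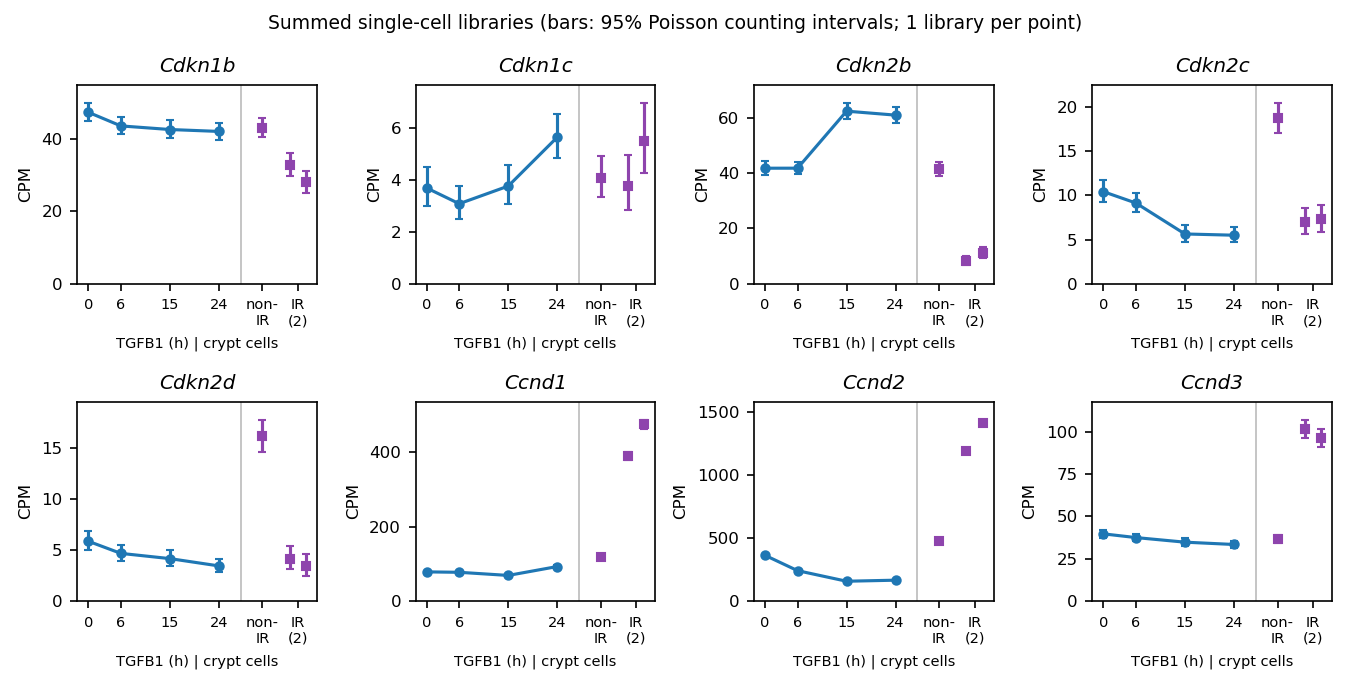
CPM (y axis, linear, from 0) of 8 members in the summed cells of each single-cell library: organoids by hours of TGFB1 (blue) and Ki67-RFP crypt cells without and 56 h after 12 Gy (purple). Bars are 95% Poisson counting intervals. Ccnd2 is already lower at 6 h and Cdkn2b higher from 15 h, and Ccnd1 and Ccnd2 are higher in both irradiated crypt libraries.

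Cdkn2a was nearly absent from these cells, with 4, 2, 0 and 9 UMIs at 0, 6, 15 and 24 h. For the 15 h library a count of 0 allows up to 0.114 CPM, taken as 3 counts of the total. Of the 15 UMIs over the 4 libraries, 9 lay in cells of the cluster named regenerative-like.

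Clustering without the members placed Cdkn2b mostly in other cells than Ccnd1, Ccnd2 and Cdkn2c. Of 12 organoid clusters, 6 were named from marker lists (mitosis-like, S phase-like, stem-like, regenerative-like and 2 enterocyte-like) and 6 stayed unnamed, with 31.0% of the cells. Cdkn2b was a gene of the differentiated and regenerative-like cells: 98.9 and 81.2 CPM in the enterocyte-like clusters and 79.3 CPM in the regenerative-like one, against 3.48 CPM in S phase-like, 5.72 CPM in stem-like and 9.85 CPM in mitosis-like cells. Cdkn2c lay in cycling cells, at 21.2 CPM in mitosis-like and 13.9 CPM in S phase-like cells, against 0.80 and 1.95 CPM in the enterocyte-like clusters. Ccnd1 was highest in stem-like cells (221 CPM) and Ccnd2 in S phase-like cells (512 CPM), and in the 2 enterocyte-like clusters Ccnd1 stood at 6.56 and 7.42 CPM and Ccnd2 at 18.6 and 49.4 CPM. Cdkn1b was highest of the named clusters in mitosis-like cells (75.5 CPM). Cdkn1c reached 36.1 CPM in an unnamed cluster led by Afp, Tff3, Reg4, Hepacam2 and Chga, beside 2.07 to 9.48 CPM in the named clusters. These are descriptions of clusters, with no test.

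Within clusters Ccnd2 and Cdkn2b took different courses. Ccnd2 was lower inside cycling cells: 525, 343, 178 and 233 CPM at 0, 6, 15 and 24 h in mitosis-like cells, and 641, 391 and 331 CPM at 0, 6 and 15 h in S phase-like cells, which numbered only 8 at 24 h. In stem-like cells it did not show this course, at 280, 338 and 359 CPM at 6, 15 and 24 h, with 27 cells at 0 h. Cdkn2b in mitosis-like cells stood at 9.09, 11.6, 8.95 and 7.63 CPM over the same times, with overlapping intervals, and in enterocyte-like cluster 1 at 89.9, 86.4, 112 and 103 CPM. The clusters with high Cdkn2b did not change in number together. At 0, 6, 15 and 24 h an unnamed cluster at 94.3 CPM held 22, 106, 700 and 546 cells, and another at 85.8 CPM held 35, 19, 69 and 429 cells. That at 85.8 CPM had 6 gene models or pseudogenes among its 10 top genes, led by Gm25829. Its median was 5430.5 UMIs per cell, beside 9841 for its libraries weighted by their cells. Enterocyte-like cluster 1 held 262, 743, 591 and 247 cells, enterocyte-like cluster 2 held 813, 663, 96 and 2 cells, and the regenerative-like cluster 113, 165, 197 and 268 cells. The S phase-like cluster, low in Cdkn2b, held 568, 542, 88 and 8 cells. Cdkn2c in mitosis-like cells stood at 22.7, 19.1, 19.2 and 26.7 CPM, and the intervals at 0 and 24 h overlapped. Ccnd1 in regenerative-like cells stood at 29.0, 36.1, 72.2 and 85.9 CPM. Cluster sizes were read from clusters whose own genes respond to treatment, so they describe these libraries only.

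**Figure D5:**
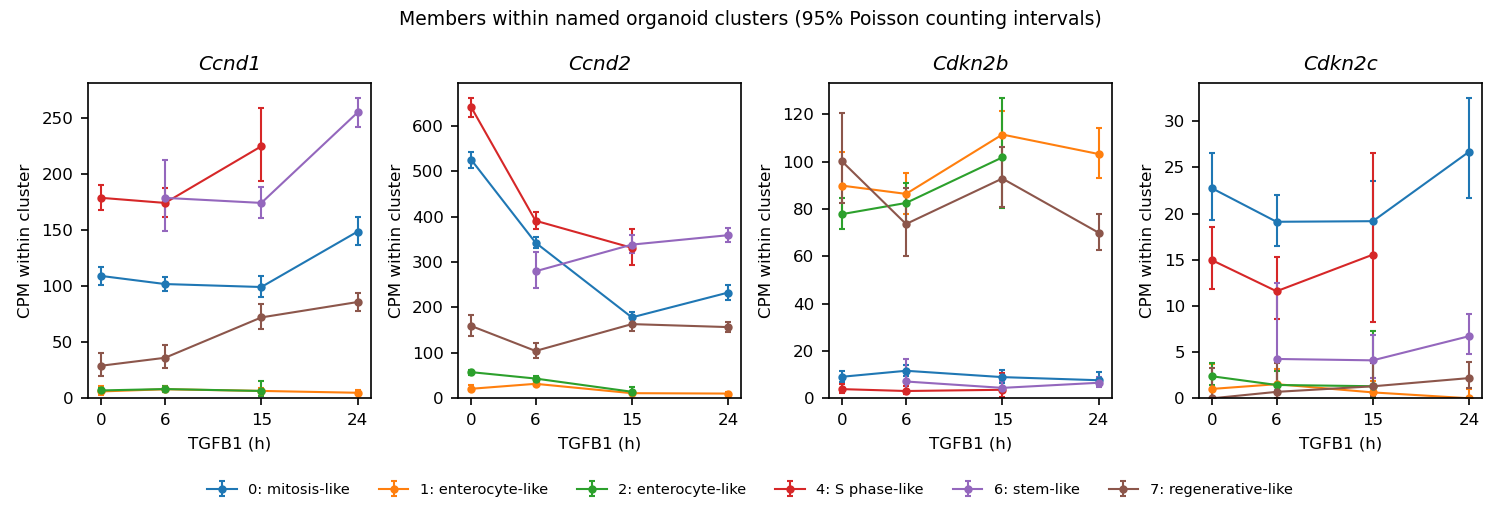
CPM within each named organoid cluster (y axis, linear, from 0) by hours of TGFB1 (x axis) for 4 members; bars are 95% Poisson counting intervals and points with under 50 cells are left out. Ccnd2 is lower than at 0 h at each later time shown in mitosis-like and S phase-like cells, whereas Cdkn2b stays between 7.63 and 11.6 CPM in mitosis-like cells.

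In the sorted crypt cells, irradiation went with more Ccnd1 and Ccnd2 RNA and less Cdkn2b, Cdkn2c and Cdkn2d RNA in both irradiated libraries. The libraries held 1846 cells without irradiation and 719 and 699 cells after it, with 12340000 to 25770000 UMIs each. Ccnd1 stood at 119 CPM without irradiation and at 390 and 475 CPM after it, a ratio of 3.27 (3.13 to 3.42) and 3.98 (3.81 to 4.16). Ccnd2 stood at 477, 1192 and 1418 CPM, and Ccnd3, whose UMIs were 99.0 to 100.0% fractional, at 36.6, 101 and 96.2 CPM. Past 1.5-fold with an interval clear of 1, 24.0% and 24.9% of genes were higher and 14.7% and 12.6% lower in the 2 comparisons. Cdkn2b stood at 41.4, 8.23 and 11.2 CPM, a ratio of 0.199 (0.162 to 0.242) and 0.270 (0.225 to 0.323). Cdkn2c stood at 18.7, 6.99 and 7.29 CPM and Cdkn2d at 16.1, 4.15 and 3.402 CPM. Cdkn1b stood at 43.1, 32.8 and 27.9 CPM and Cdkn1c at 4.07, 3.79 and 5.51 CPM. The related inhibitor Cdkn1a, which is not a member, was higher after irradiation, at 64.7, 199 and 308 CPM. Cdkn2a had 1, 0 and 1 UMIs. There was 1 library without irradiation, so the difference has no replicate check on that side, and both irradiated libraries share that control.

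The cell makeup moved with these values, and the largest clusters split almost wholly by irradiation. Smaller ones were mixed, such as the goblet-like cluster with 69 cells without irradiation and 38 and 20 after it. Stem-like cells came from the non-irradiated library in 706 of 707 cells, and regenerative-like cells (537) came from the irradiated libraries alone. Of 10 crypt clusters 5 stayed unnamed, with 41.3% of the cells. Unnamed clusters of 474 and 291 cells also came from the irradiated libraries alone, and 1 of 532 cells from the non-irradiated library alone. Enterocyte-like cells, with the highest Cdkn2b of the named crypt clusters (101 CPM), numbered 479 without irradiation and 0 and 2 after it. Ccnd2 stood at 1783 CPM in regenerative-like and 574 CPM in stem-like cells, and Ccnd1 at 581 and 156 CPM. Cdkn2d was highest (27.9 CPM) in an unnamed cluster led by Cdkn2d itself, Rbp7 and Gsdmc4, although the members took no part in the clustering. Cdkn2b stood at 14.8 CPM in regenerative-like and 3.36 CPM in stem-like cells. An unnamed cluster led by Cyp3a11, Apoc2 and Ggt1, at 117 CPM of Cdkn2b, held 3 cells without irradiation and 9 and 32 after it. The 10 enterocyte markers summed to 4400 CPM without irradiation and to 853 and 2609 CPM after it, and their part in the lower Cdkn2b was not tested. Cdkn1c was again highest in a secretory cluster, the goblet-like cells (29.7 CPM).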

How the data were processed

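Bulk RNA values were FPKM deposited by the authors in 3 tables of 6 libraries, and 0 of their columns were left unmapped. TopHat2 2.1.0, Cuffnorm 2.2.1 and Cuffdiff 2.2.1 are named in the submitters' processing notes, with no role given. In the deposited single-cell matrices the values are expected counts, since some UMIs are split between genes; STARsolo and STAR 2.7.10a are named in the same notes. ATAC peaks were deposited with a -log10 q score and are not analysed here: 4.83 to 5.91% of peak centres lay within 1000 bp of a GRCm38.p6 start, beside 3.9 to 4.39% after a shift of 100000 bp, so the build could not be matched.

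FPKM were fitted as log2(FPKM + 1) with limma 3.58.1 (trend, robust; R 4.3.3) within each table, for genes averaging 1 FPKM or more; interactions used 12 libraries. The fit was tested on simulated data with few changed genes, unlike these tables, and no result here rests on that test. Cells under 500 UMIs or 250 genes, or over 20% mitochondrial UMIs, were left out, and no doublet caller was run. Values are CPM of summed UMIs with exact Poisson intervals (95%). Clusters used scanpy 1.11.5 and leidenalg 0.10.2 (2000 variable genes without the members, 30 components, 15 neighbours, resolution 0.6). A name needed a median marker fold of at least 2 and 3 detected markers. A cluster also stayed unnamed where at least 5 of its 10 top genes by fold were gene models or pseudogenes. So did one whose second marker list reached at least 0.9 of the fold of the first. The name limits were set after the data were seen. Members and lists were chosen with earlier results of these data known. Text names the 9 members and the related genes with a called log2 change of at least 1 in a table, 10 at most by size. Alternatives were other pseudocounts, filters, scalings and cell limits, a replicate block, another resolution, and leaving out each library. A gene among those most like Cdkn2c is not reported here.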

Additional observations from a re-analysis of the deposited data

Results flagged for a closer look

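Tests of the difference between 2 TGFB1 effects passed for 6 members with irradiation at D7. On the log2 scale (limma, adjusted p under the threshold, 12 libraries), the effect was higher with irradiation for Cdkn1c (0.68) and Cdkn2b (0.79), and lower for Cdkn2c (-0.75), Ccnd1 (-1.14), Ccnd2 (-1.05) and Ccnd3 (-0.55). Between D7 and D11 in irradiated organoids the term passed for 6 members as well: it was lower at D11 for Cdkn1b (-0.37) and higher for Cdkn2a (1.90), Cdkn2c (1.15), Ccnd1 (1.57), Ccnd2 (1.60) and Ccnd3 (0.99). Cdkn2a was tested between the days only through its D11 TGFB1 libraries, so its term is a description. Such differences were common, at 53.1% and 64.5% of all genes tested. Cdkn2b and Cdkn1c passed with irradiation and not between the days, where their terms were -0.05 and 0.23.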

How the results depend on the processing

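Of 729 alternatives computed for single members, 715 kept direction and side of the threshold. Signs turned for Ccnd2 at D11 under quantile normalization (0.039), and leaving out 1 library gave -0.092 to 0.010, above 0 without D11 IR vehicle replicate 1. They turned for the irradiation term of Cdkn2d with a pseudocount of 0.1 (-0.38), of 0.5 (-0.018) and under quantile normalization (-0.0382), and for the day term of Cdkn2b under quantile normalization (0.10). For that term leaving out 1 library gave -0.12 to 0.039, above 0 without D11 IR vehicle replicate 3 or D11 IR TGFB1 replicate 3 (0.00947). None of these passed the test as reported, and the cause was not tested. A Cdkn1b UMI was present in 9.96% of cells at 0 h and 6.49% at 24 h after thinning to 2000 UMIs, and in 31.7% and 34.5% without thinning, a difference of 2.77 percentage points. At resolution 1.0 the log2 ratio of Cdkn1c in S phase-like against enterocyte-like cells was 0.16, against -0.13 as reported. Same-numbered libraries had correlations of -0.0856 to 0.2126, which do not show whether they were paired. The replicate block changed no call, with 7 members called in D7 IR and 8 in D11 IR organoids. Leaving out 1 library gave 5 to 6 members called in D7 non-IR, 7 in D7 IR and 8 in D11 IR organoids. The irradiation term of Cdkn1b passed without D7 non-IR TGFB1 replicate 1 (-0.25), D7 IR vehicle replicate 1 (-0.24) or D7 IR TGFB1 replicate 1 (-0.25). Ccnd3 in D7 non-IR organoids passed under quantile normalization (-0.13) and without D7 non-IR TGFB1 replicate 3 (-0.13), and the day term of Cdkn1c without D11 IR vehicle replicate 3 (0.37). Within Ccnd1 and Ccnd2 alone the share of Ccnd2 changed by -23.2, -22.0 and -21.2 percentage points in the 3 tables, in the order D7 without irradiation, D7 IR, D11 IR. The alternatives for ATAC peaks were not run. Read depth limits Cdkn2a in single cells.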
